A study of Mus musculus with 4 samples.

Results

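The genes described here are 9 members of the killer granule and inflammatory chemokine families: the granzymes Gzma, Gzmb, Gzmk and Gzmm, perforin (Prf1), the granule membrane protein gene Nkg7, and the CC chemokines Ccl3, Ccl4 and Ccl5. They were chosen by gene name, through the Ensembl identifiers of the deposited tables. All 9 were found among the 38924 genes of the count table, and 9 of the 14235 genes tested were members. The study compared regulatory T cells (Treg, CD4+ T cells marked by the transcription factor Foxp3) from mouse spleen by low-input RNA sequencing. Resting Treg and activated Treg were represented by 2 libraries each, from independent animals. The labels give no strain, genotype, age or treatment for either group, and they print 1 and the same surface gate, which includes low CD44, for both groups. The question stated for the series is how these 2 transcriptomes differ, under a title on graded Foxo1 activity in Treg.

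Granzymes are serine proteases kept in secretory granules, and perforin is the protein that opens the membrane of a target cell so that granzymes can enter. Granzymes A and K cut after basic residues, granzyme B cuts after aspartate and can start apoptosis, and granzyme M prefers methionine or leucine. Nkg7 is a membrane protein of cytotoxic granules that is needed for full degranulation. Ccl3, Ccl4 and Ccl5 are secreted chemokines that attract T cells and myeloid cells, and Ccr1 is a receptor of Ccl3 and Ccl5. Some Treg are known to carry granzyme B and to use it against effector cells, and some are known to secrete these chemokines.

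The 3 sequences here show the start regions of a granzyme, of perforin and of a chemokine, because these classes differed in their values below. Each is the 250 bases before the RefSeq start (GRCm38.p6), written 5′ to 3′ along the gene. Capitals mark the letters of a searched motif. The Gzmb window is chr14:56262335-56262584 on the minus strand, the Prf1 window chr10:61297586-61297835 on the plus strand and the Ccl3 window chr11:83649379-83649628 on the minus strand.
Gzmb: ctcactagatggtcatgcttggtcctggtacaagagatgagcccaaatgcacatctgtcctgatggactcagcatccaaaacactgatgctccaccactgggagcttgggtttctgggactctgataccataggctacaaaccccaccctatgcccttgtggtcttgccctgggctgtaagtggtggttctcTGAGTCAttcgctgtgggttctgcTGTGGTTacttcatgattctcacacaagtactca
Prf1: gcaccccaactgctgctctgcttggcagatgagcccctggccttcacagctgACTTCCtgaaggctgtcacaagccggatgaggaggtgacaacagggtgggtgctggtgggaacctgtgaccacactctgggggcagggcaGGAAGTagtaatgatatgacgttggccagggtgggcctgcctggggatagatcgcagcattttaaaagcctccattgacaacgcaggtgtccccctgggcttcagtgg
Ccl3: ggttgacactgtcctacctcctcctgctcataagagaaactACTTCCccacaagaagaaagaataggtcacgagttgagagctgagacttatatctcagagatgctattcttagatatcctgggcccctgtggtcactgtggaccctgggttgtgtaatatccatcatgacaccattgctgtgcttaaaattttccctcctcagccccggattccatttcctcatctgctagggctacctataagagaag

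The motifs searched on both strands were Foxo (GTAAACA), AP-1 (TGANTCA, its own reverse complement), Runx (TGTGGTT), Ets (GGAAGT), T-box (AGGTGTGA) and NF-kB. RefSeq windows were matched for 7 of the 9 members, all but Ccl4 and Ccl5, with 8 windows in all. Distances run from the RefSeq start. The GENCODE M21 annotation starts the genes at other bases, 56262260 for Gzmb, 61297833 for Prf1 and 83649355 for Ccl3. For these genes and Gzmk, the bases after the RefSeq start were not found as an unbroken run in GENCODE transcripts. Gzmb held AP-1 letters from 58 to 52 bases before the start and Runx letters from 34 to 28 bases before it. Prf1 held Ets letters from 198 to 193 and from 108 to 103 bases before the start, and Ccl3 held them from 209 to 204. Of the other members matched, Gzma held Runx letters, Gzmk held Ets letters and Nkg7 held T-box letters. The Foxo and the NF-kB letters were found in 0 of these windows, and the start regions of Ccl4 and Ccl5 were not searched. Among 32851 windows of the same length, 6.75% held the AP-1 letters, 4.4% Runx, 19.74% Ets, 1.12% T-box, 3.17% Foxo and 1.41% NF-kB. Absence of a match says only that these letters are not in the window. A match describes letters and not binding.

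Library totals were 20699024 and 31851982 counts in the libraries called resting A and resting B, and 29332058 and 20282062 in activated A and activated B. The letters A and B serve as names, and the labels of the count columns pair no libraries. Later ratios of libraries with the same letter compare libraries that were both high or both low in macrophage markers, not matched in that level. Runs of 4 values below keep the library order of these totals. Levels are given as CPM, counts scaled to library size, and 1 CPM was 20.3 counts in the shallowest library. Cd44 was at 145 and 213 CPM in the resting and at 329 and 335 CPM in the activated libraries. Cd44 thus separated the groups although the printed gate is the same for both. Foxp3 lay between 35.1 and 38.8 CPM in every library. Macrophage and monocyte markers, 10 genes summed, were at 501 CPM in resting A and 567 CPM in activated A, against 23.6 CPM in resting B and 76.8 CPM in activated B. By this list the libraries split into a pair with high and a pair with low macrophage markers, and each pair held 1 library of each group. Summed plasmacytoid dendritic cell markers, 9 genes, were at 192 (A) and 220 (B) CPM in resting Treg and 1254 (A) and 471 (B) CPM in activated Treg.

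The clearest difference was in the CC chemokines, led by Ccl5, a ligand of Ccr1 and Ccr3. Ccl5 was at 8.56 CPM in resting A and 20.5 CPM in resting B, and at 145 CPM in activated A and 205 CPM in activated B. The groups did not overlap, and the lower activated library was far above the higher resting one. The mean was 14.5 ± 8.42 CPM (SD, n = 2) in resting and 175 ± 42.5 CPM (SD, n = 2) in activated Treg, a 12.0-fold difference. The log2 fold change was 3.58 ± 0.49 (SE) by edgeR. With Benjamini-Hochberg adjustment over all genes, edgeR gave an adjusted p of 0.267, which did not pass the threshold of 0.05, and DESeq2 gave 1.62e-12. Ccl5 passed by edgeR without resting A (adjusted p = 1.24e-05) and without resting B (adjusted p = 0.00804). The gene occupies chr11:83525778-83530518 on the minus strand (mm10, GENCODE M21).

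Ccl4, which attracts T cells and macrophages, had 21 counts (1.02 CPM) in resting A and 6 counts (0.196 CPM) in resting B. It had 151 counts (4.94 CPM) in activated A and 252 counts (12.4 CPM) in activated B. All activated values lay above all resting values, and the spread within each group was wide. The log2 fold change was 3.71 ± 0.90 (SE), with an adjusted p of 0.353 by edgeR and 0.000974 by DESeq2. Omitting resting A gave 5.02 (edgeR adjusted p = 2.88e-05) and omitting resting B 2.97 (adjusted p = 0.0807). Omitting activated A gave 4.22 (edgeR adjusted p = 0.181) and omitting activated B 2.91 (adjusted p = 0.466).

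Ccl3, a ligand of Ccr1, was scarce, with 2 (A) and 6 (B) counts in resting Treg and 29 (A) and 16 (B) counts in activated Treg. Its activated libraries lay above its resting ones, at 0.949 and 0.79 CPM against 0.0972 and 0.196 CPM. The summed counts, 8 and 45, gave a ratio of 5.67 with an exact 95% interval of 2.64 to 13.9 that covers counting error only. Neither tool called the log2 fold change of 2.06 ± 0.65 (SE; adjusted p = 0.445 by edgeR and 0.556 by DESeq2). Ccl3 and Ccl4 lie 13.2 kb apart on chromosome 11, from 83647844 to 83649355 (minus strand) and from 83662584 to 83664683 (plus strand). Ccl5 lies 117.3 kb from Ccl3.

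**Figure D1:**
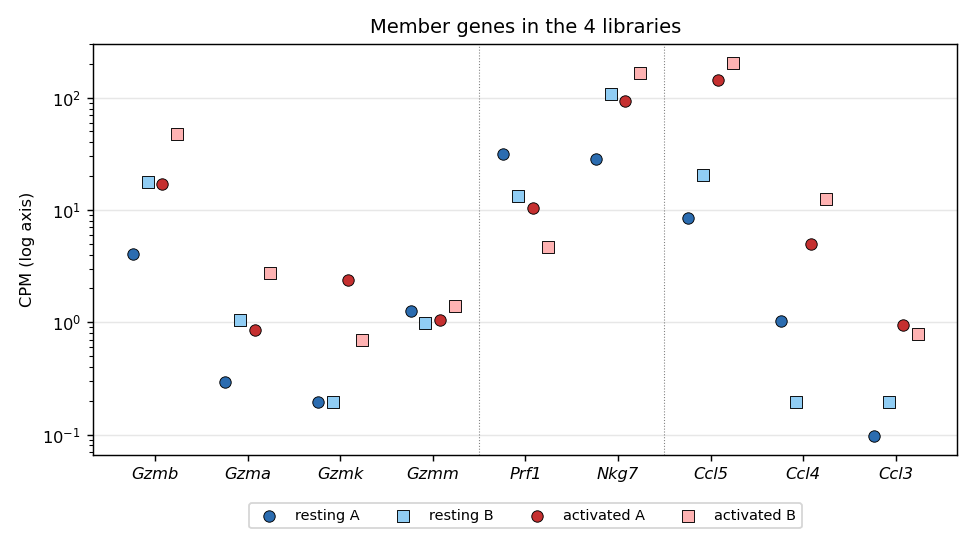
CPM of the 9 member genes on a log axis, 1 point per library, with circles for the A and squares for the B libraries, blue for resting and red for activated Treg. Ccl5, Ccl4, Ccl3 and Gzmk lie higher in both activated libraries, Prf1 lies lower in both, and resting B overlaps activated A for Gzmb, Gzma and Nkg7.

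Among the granzymes, Gzmb had the highest level and Gzmm the smallest difference between groups. Gzmb was at 4.08 CPM in resting A, 17.6 CPM in resting B, 16.9 CPM in activated A and 47.4 CPM in activated B. Resting B and activated A were nearly equal, so the groups overlapped by a narrow margin; with library totals alone as the scale they did not overlap. The mean was 10.8 ± 9.53 CPM (SD, n = 2) in resting and 32.2 ± 21.6 CPM (SD, n = 2) in activated Treg. Its log2 fold change was 1.55 ± 0.81 (SE), with an adjusted p of 0.739 by edgeR and 0.379 by DESeq2. It ranged from 0.63 without activated B to 2.93 without resting B, where the edgeR adjusted p was 0.0441. Gzmb occupies chr14:56258838-56262260 on the minus strand, 24.2 kb from Gzmc in a cluster of related granzyme genes. The sources used here do not state how reads shared within that cluster were counted.

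Gzma had 6 (A) and 32 (B) counts in resting Treg and 26 (A) and 56 (B) counts in activated Treg, or 0.292, 1.04, 0.851 and 2.76 CPM. Its order over the 4 libraries was that of Gzmb, with resting A lowest, activated B highest and the other two close together. Its log2 fold change was 1.31 ± 0.86 (SE), with an edgeR adjusted p of 0.838, and it ranged from 0.29 without activated B to 2.31 without resting B. Gzma occupies chr13:113093825-113100981 on the minus strand.

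Gzmk, 70.6 kb from Gzma, had 4 (A) and 6 (B) counts in resting Treg and 73 (A) and 14 (B) counts in activated Treg. Here activated A was the highest library, unlike for the other granzymes. The summed counts, 10 and 87, gave a ratio of 8.76 with an exact 95% interval of 4.54 to 18.9 for counting error. The fitted log2 fold change was 2.57 ± 0.76 (SE), with an adjusted p of 0.409 by edgeR and 0.226 by DESeq2, and it was 1.48 without activated A. Gzmk spans 113171608 to 113225908 on the minus strand of chromosome 13, and the Esm1 gene on the other strand overlaps this span with 0 shared exon bases.

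Gzmm had 26 (A) and 30 (B) counts in resting Treg and 32 (A) and 28 (B) counts in activated Treg. Its values overlapped fully, at 1.26, 0.979, 1.05 and 1.38 CPM, and the log2 fold change was 0.11 ± 0.52 (SE), with an edgeR adjusted p of 0.994. At this depth no difference was detectable. Gzmm occupies chr10:79689020-79695261 on the plus strand. The other granzymes of the chromosome 14 cluster were nearly silent except Gzmc, which had 92, 138, 41 and 64 counts in that library order. Its log2 fold change was -0.98 ± 0.52 (SE), with an edgeR adjusted p of 0.75. Gzme, Gzmf and Gzmn had at most 10 counts in a library. Gzmd and Gzmg had 0 counts in all 4, which allows up to 0.148 CPM (3 counts) in the shallowest library.

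Perforin went the other way. Prf1 was at 31.5 CPM in resting A, 13.4 CPM in resting B, 10.4 CPM in activated A and 4.69 CPM in activated B. The groups did not overlap, with activated lower, though resting B and activated A were close. The mean was 22.5 ± 12.8 CPM (SD, n = 2) in resting and 7.56 ± 4.06 CPM (SD, n = 2) in activated Treg, 2.97-fold lower. The log2 fold change was -1.55 ± 0.58 (SE), with an adjusted p of 0.529 by edgeR and 0.143 by DESeq2, and it ranged from -0.83 without resting A to -2.23 without activated A. Over the 4 libraries the order of Prf1 was nearly the reverse of that of Gzmb, its partner in target cell killing. Prf1 occupies chr10:61297833-61304680 on the plus strand.

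Nkg7 was at 28.4 CPM in resting A, 107 CPM in resting B, 94.3 CPM in activated A and 167 CPM in activated B. The groups overlapped, with resting A alone far below the rest. The log2 fold change was 0.95 ± 0.66 (SE), with an edgeR adjusted p of 0.861, and it ranged from 0.28 without resting A to 2.18 without resting B (edgeR adjusted p = 0.0423). Nkg7 occupies chr7:43437073-43438249 on the plus strand.

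By edgeR over all 14235 genes, 0 of the 9 members and 0 genes at all passed (0% called). At an unadjusted p under 0.05, edgeR counted 4 members higher (Gzmk, Ccl3, Ccl4 and Ccl5), beside 6.30% of all genes tested, and 1 lower (Prf1), beside 2.61%. DESeq2 called 2 members higher, Ccl4 and Ccl5, beside 2.32% of genes, and 0 lower, beside 0.845%. Both activated libraries lay above both resting ones for 4 members and for 19.8% of all genes, and below them for 1 member and for 17.4% of all genes. Gzmk and Ccl3 passed the filter on low counts through their activated libraries alone. Ccl4, with 6 counts in resting B, needed an activated library to pass too. The place of these members in the counts above is partly set by that filter. The median log2 fold change was 1.55 over the 9 members and -0.0072 over all genes tested.

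Within each group, the library with fewer macrophage markers had more Gzmb, Gzma, Nkg7 and Ccl5 and less Prf1. With 1 library of each kind in a group, the part of those cells in this split was not tested. The term of the fit given next divides the A from the B libraries, so it takes up any difference between them. Resting B exceeded resting A 4.30-fold for Gzmb, 3.58-fold for Gzma and 3.77-fold for Nkg7, and activated B exceeded activated A 2.80-fold, 3.25-fold and 1.77-fold. Prf1 did the reverse, with resting A 2.35-fold above resting B and activated A 2.23-fold above activated B. Within the pair of libraries with high macrophage markers, activated A over resting A, the ratio was 4.14 for Gzmb, 3.32 for Nkg7, 4.84 for Ccl4 and 16.9 for Ccl5. Within the pair with low macrophage markers, activated B over resting B, it was 2.70 for Gzmb, 1.56 for Nkg7, 63.5 for Ccl4 and 10.0 for Ccl5. The Ccl4 ratio in the low pair rests on 6 counts in resting B. Prf1 was 3.02-fold lower in activated Treg within the high pair and 2.86-fold lower within the low pair. The low pair was not matched in macrophage markers, which summed to 23.6 CPM in resting B and 76.8 CPM in activated B. Each of these ratios compares single libraries and has no replicate error of its own.

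A fit that held macrophage marker level as a term beside group was added after the data were seen. It left 1 residual degree of freedom. By edgeR it called 5 members: Gzmb, Nkg7, Ccl4 and Ccl5 were higher, beside 5.30% of all genes, and Prf1 was lower, beside 2.61%. In that fit the log2 fold change of Ccl5 was 3.67 ± 0.19 (SE, adjusted p = 7.11e-05 by edgeR), that of Gzmb 1.70 ± 0.21 (adjusted p = 0.00216) and that of Prf1 -1.55 ± 0.20 (adjusted p = 0.0028). Nkg7 was at 1.17 ± 0.23 (SE, adjusted p = 0.0182 by edgeR) and Ccl4 at 3.70 ± 0.73 (adjusted p = 0.0191). Gzma (adjusted p = 0.221), Gzmk (0.0898), Ccl3 (0.165) and Gzmm (0.949) did not pass by edgeR. For Gzmb, Prf1, Nkg7 and Ccl5 the log2 fold changes lay close to those of the fit on group alone, with smaller errors. With limma and a replicate block on the deposited regularized log2 values, the same 5 members passed in the same directions, beside 7.21% of genes called higher and 3.69% lower. On that scale the macrophage marker Csf1r was at 10.6 in resting 1 and in activated 1. It was at 6.29 in resting 2 and 7.21 in activated 2. The block thus split the libraries as the macrophage term did, so it was not a separate test. The labels do not say what libraries of one number share.

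**Figure D2:**
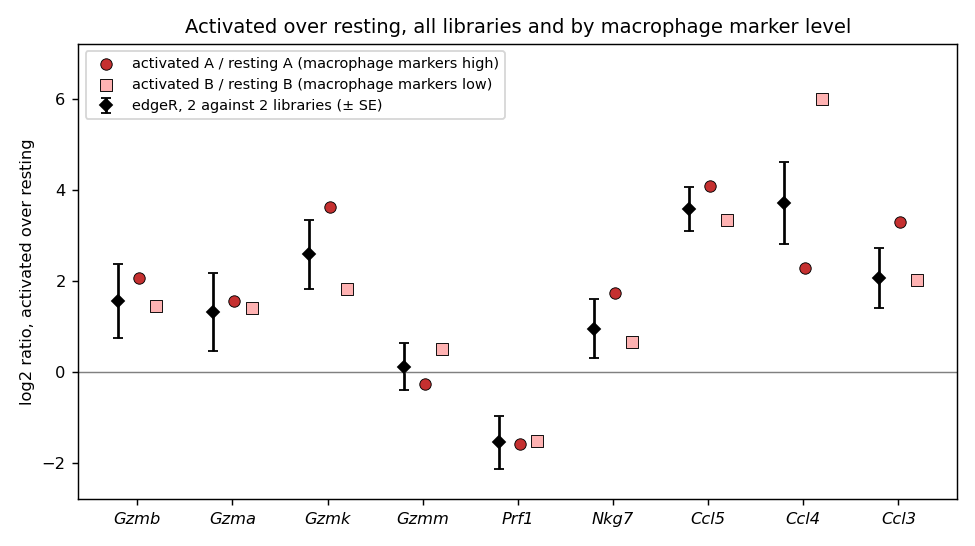
Log2 ratio of activated over resting Treg for the 9 members. Black diamonds are edgeR values over all 4 libraries with bars of 1 SE, and red circles and pink squares are ratios of single libraries with high and low macrophage markers. Ccl5 lies above 3 and Prf1 near -1.5 in all 3 readings, and Gzmm lies on both sides of 0.

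To compare levels between genes, CPM was divided by the merged exon length in kilobases. On this scale Nkg7 was highest in resting Treg, with a mean of 74.0, followed by Ccl5 (15.1), Prf1 (8.69) and Gzmb (7.54). The ranges of the last 3 overlapped between the resting libraries, so their order is not resolved. Ccl4 (0.922), Gzmm (0.762), Gzma (0.664), Ccl3 (0.191) and Gzmk (0.141) were lower. In activated Treg the order was Ccl5 (182), Nkg7 (143), Gzmb (22.4), Ccl4 (13.2) and Prf1 (2.93), with overlapping ranges for Ccl5 and Nkg7 and for Gzmb and Ccl4. Gzma (1.80), Ccl3 (1.13), Gzmk (1.11) and Gzmm (0.825) stayed low. Per length, Prf1 stood above Gzmb in resting A alone, at 12.2 against 2.84. It stood below Gzmb in resting B (5.19 against 12.2), activated A (4.04 against 11.8) and activated B (1.81 against 33.0).

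The genes that sort, mature and store granule proteins were read next. Of 7 measured, 0 passed by edgeR. DESeq2 called Cst7 higher, beside 2.32% of genes, and Igf2r lower, beside 0.845%. Cst7 encodes cystatin F, an inhibitor of the cathepsins that activate granzymes. It was at 42.0 (A) and 91.5 (B) CPM in resting Treg and 147 (A) and 266 (B) CPM in activated Treg (log2 fold change 1.63 ± 0.48, SE), with an adjusted p of 0.406 by edgeR and 0.0168 by DESeq2. Igf2r, a receptor that carries mannose 6-phosphate tagged enzymes to granules, was at 391 (A) and 405 (B) CPM in resting Treg and 194 (A) and 166 (B) in activated Treg. M6pr, the other receptor of this kind, was at 347 and 374 CPM and at 474 and 544 CPM, so that the pair lay on opposite sides of 0. Srgn, the proteoglycan that packs granzymes, was abundant at 521, 878, 785 and 1383 CPM in that library order, the same order of libraries as for Nkg7 over a narrower range. Ctsc, the cathepsin that activates granzymes, lay between 142 and 174 CPM in every library, with a log2 fold change of -0.12 ± 0.18 (SE). Ctsh, another cathepsin, was at 9.77 (A) and 1.31 (B) CPM in resting Treg and 147 (A) and 40.5 (B) in activated Treg. It was thus higher in the A library of each group. The macrophage and monocyte marker Lyz2 was so too, at 11.8 (A) and 2.15 (B) CPM in resting Treg. In activated Treg Lyz2 was at 105 (A) and 25.6 (B) CPM. Lyz2 is 1 of 10 macrophage and monocyte markers, of which 8 overlapped between the groups. The median log2 fold change of that list was 0.043. The summed plasmacytoid dendritic cell markers were higher in A among the activated libraries alone. Which cells supplied the Ctsh counts was not tested.

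Granule transport and fusion, the step of release, showed smaller differences. Of 7 measured genes of granule transport and fusion, 0 passed by edgeR or DESeq2, with 0 at an unadjusted edgeR p under 0.05 and a median log2 fold change of 0.24. Rab27a, a GTPase that docks granules, was at -0.03 ± 0.19 (SE) and Unc13d, a priming factor, at 0.08 ± 0.24. Stx11, a fusion protein, had the widest range, at 8.41, 25.5, 19.8 and 48.7 CPM in that library order, the same order of libraries as for Gzmb. The SNARE gene Vamp8 (0.56 ± 0.33), the adaptor gene Ap3b1 (0.28 ± 0.20) and the syntaxin-binding gene Stxbp2 (0.19 ± 0.25) had smaller log2 fold changes. With macrophage marker level as a term, edgeR called Stx11 (adjusted p = 0.00736) and Vamp8 (adjusted p = 0.025) higher. Of the genes of sorting and storage it called 4 higher (Ctsh, Cst7, Srgn and M6pr) and 1 lower (Igf2r). Over all genes that fit called 5.30% higher and 2.61% lower. The 3 serpins that inhibit granzymes, Serpinb9, Serpinb6a and Serpinb6b, lay between 32.4 and 56.8 CPM in all libraries with log2 fold changes from 0.083 to 0.28. The death ligand genes Fasl (0.32 ± 0.25) and Tnfsf10 (0.33 ± 0.25) had small differences too. None of these 5 passed by edgeR or DESeq2, also with the added term, and 0 of them had an unadjusted edgeR p under 0.05.

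Receptors for these chemokines were read beside their ligands. Ccr1 had 2, 24, 66 and 24 counts in that library order and was called by neither tool. Ccr3 was at 27.6 (A) and 5.42 (B) CPM in resting Treg and 24.2 (A) and 5.92 (B) in activated Treg, which followed the macrophage markers and not the group.

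Of 28 other chemokine genes, 10 had enough counts to be tested and 5 had no count in any library (Ccl7, Ccl8, Ccl12, Cxcl1 and Cxcl14). None passed by edgeR (0). Its unadjusted p was under 0.05 for 3 genes higher, beside 6.30% of all genes, and for 0 lower, beside 2.61%. DESeq2 called Ccl20 and Cxcl10 higher, beside 2.32% of genes. Ccl20, the ligand of Ccr6, had 2 (A) and 4 (B) counts in resting Treg and 81 (A) and 53 (B) counts in activated Treg. Cxcl10, a ligand of Cxcr3, was at 1.60 (A) and 3.13 (B) CPM in resting Treg and 10.0 (A) and 19.2 (B) in activated Treg (log2 fold change 2.58 ± 0.52, SE). Ccl1, the ligand of Ccr8, had 0 (A) and 24 (B) counts in resting Treg and 169 (A) and 286 (B) counts in activated Treg, the third gene at that level. Cxcl16, the ligand of Cxcr6, had 20 and 27 counts in the resting and 99 and 26 counts in the activated libraries and was called by neither tool. With the added term edgeR called Ccl20, Cxcl10 and Ccl1 higher and 0 lower of the 10, beside 5.30% and 2.61% of all genes. Ccl20 passed the filter on low counts through its activated libraries alone. Ccl1, with 0 counts in resting A, needed an activated library to pass too. The counts of higher genes in this list are thus partly set by that filter. Ccl6, which lies between Ccl5 and Ccl3 on chromosome 11, had 71, 12, 134 and 6 counts in that library order and so followed the macrophage markers, unlike those neighbours.

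**Figure D3:**
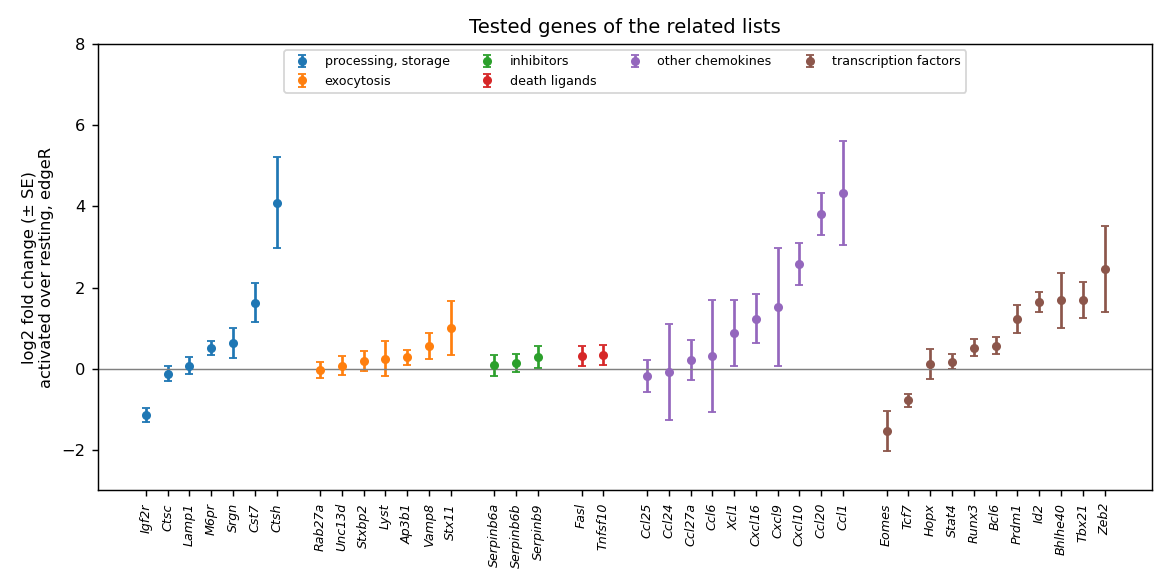
Log2 fold change, activated over resting Treg, with bars of 1 SE by edgeR for the tested genes of 6 related lists, each list in its own colour. Serpin inhibitors and death ligands lie near 0, while Ctsh, Ccl20, Ccl1, Cxcl10 and Zeb2 lie above 2.

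All 11 listed transcription factors of cytotoxic lymphocytes were measured. None passed by edgeR (0). Its unadjusted p was under 0.05 for 4 genes higher, beside 6.30% of all genes, and for 2 lower, beside 2.61%. DESeq2 called Id2 and Tbx21 higher, beside 2.32% of genes, and Tcf7 lower, beside 0.845%. Id2, an inhibitor of E proteins, was at 89.6 (A) and 103 (B) CPM in resting Treg and 244 (A) and 357 (B) in activated Treg (log2 fold change 1.64 ± 0.25, SE). Tbx21, which encodes T-bet, was at 2.33 (A) and 4.37 (B) CPM in resting Treg and 9.26 (A) and 12.9 (B) in activated Treg (log2 fold change 1.70 ± 0.44, SE). Eomes, the T-box factor of killer cells that is known to drive perforin, was scarce and lower, with 44 (A) and 75 (B) counts in resting Treg and 27 (A) and 12 (B) counts in activated Treg. Its log2 fold change was -1.53 ± 0.50 (SE), with an adjusted p of 0.455 by edgeR and 0.435 by DESeq2. Prdm1, which encodes Blimp-1, was at 15.0 (A) and 21.1 (B) CPM in resting Treg and 30.9 (A) and 53.8 (B) in activated Treg, with an adjusted p of 0.0618 by DESeq2. Tcf7, a factor of naive T cells, was at 917 (A) and 851 (B) CPM in resting Treg and 489 (A) and 539 (B) in activated Treg. Runx3 differed little, at 20.8 (A) and 24.5 (B) CPM in resting Treg and 29.9 (A) and 35.1 (B) in activated Treg. With the added term edgeR called 5 of the 11 higher (Tbx21, Prdm1, Zeb2, Id2 and Bhlhe40), beside 5.30% of all genes. It called 1 lower (Tcf7), beside 2.61%.

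Markers of other cells that make these proteins were set beside the members. The 11 natural killer and CD8 T cell markers summed to 103 (A) and 69.8 (B) CPM in resting Treg. In activated Treg they summed to 368 (A) and 170 (B) CPM. Of 8 tested, 6 lay higher in both activated libraries, beside 19.8% of all genes tested. Of the defining natural killer genes, Ncr1 had 0 counts in both resting libraries and 7 and 4 counts in activated A and B, and Klre1 had at most 1 count. Klrb1c, which encodes NK1.1, was at 2.14 (A) and 3.88 (B) CPM in resting Treg and 11.7 (A) and 15.7 (B) CPM in activated Treg, and DESeq2 called it and Klrd1 higher. Cd160 was at 21.5, 35.1, 40.1 and 57.1 CPM in the library order of the totals. Both were higher in activated B than in activated A, as Gzmb, Nkg7, Ccl4 and Ccl5 were. Other markers of the list went the other way. Klrd1 was at 16.4 CPM in activated A and 5.92 CPM in activated B, and Klrk1 at 5.20 and 2.02 CPM. In the same libraries Cd8a was at 17.4 and 4.64 CPM and Cd8b1 at 64.45 and 31.1 CPM. The summed list was higher in activated A, where Tyrobp (148 CPM) and Fcer1g (64.3 CPM), which myeloid cells also express, made up most of it. With macrophage marker level as a term, edgeR called 6 of 8 natural killer and CD8 T cell markers higher, beside 5.30% of all genes. It called 7 of 9 plasmacytoid dendritic cell markers higher. These markers thus lay in the same direction as the members called higher in that fit. The plasmacytoid dendritic cell markers were called higher by DESeq2 for 7 of 9, beside 2.32% of genes. Klk1, with 4 and 0 counts in resting A and B, passed the filter on low counts through its activated libraries alone. Siglech, with 16 and 8 counts there, needed an activated library to pass. The counts of higher genes in this list are thus partly set by that filter. The sum of the plasmacytoid dendritic cell markers too was higher in activated A. The part of these cells in the values of the members was not tested. In such bulk libraries a change in the number of cells of a type and a change in RNA per cell cannot be told apart.

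Macrophage markers were about as high in resting A as in activated A, as given above, and DESeq2 called 0 of 10. With their level as a term, edgeR called 3 of them higher, Lyz2 (log2 fold change 3.31), Spi1 (2.58) and Cd68 (1.80), beside 5.30% of all genes. That term was set by the sum of these same markers, so this count is not a separate test of them. Spi1, with 16 and 5 counts in resting A and B, also needed an activated library to pass the filter on low counts. Their part in the values of the members was not tested. Mast cell and basophil markers, from cells that also store granzyme B, summed to between 1.11 and 1.40 CPM in every library, with Mcpt4 and Ms4a2 at 0 counts in all 4. Neutrophil markers summed to at most 2.55 CPM. B cell markers summed to 41.6 (A) and 61.7 (B) CPM in resting Treg and 65.6 (A) and 88.6 (B) CPM in activated Treg, of which Cd79b made up the larger share. Cd79b was higher in both activated libraries, while Ms4a1 and Cd79a were lower in both.

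**Figure D4:**
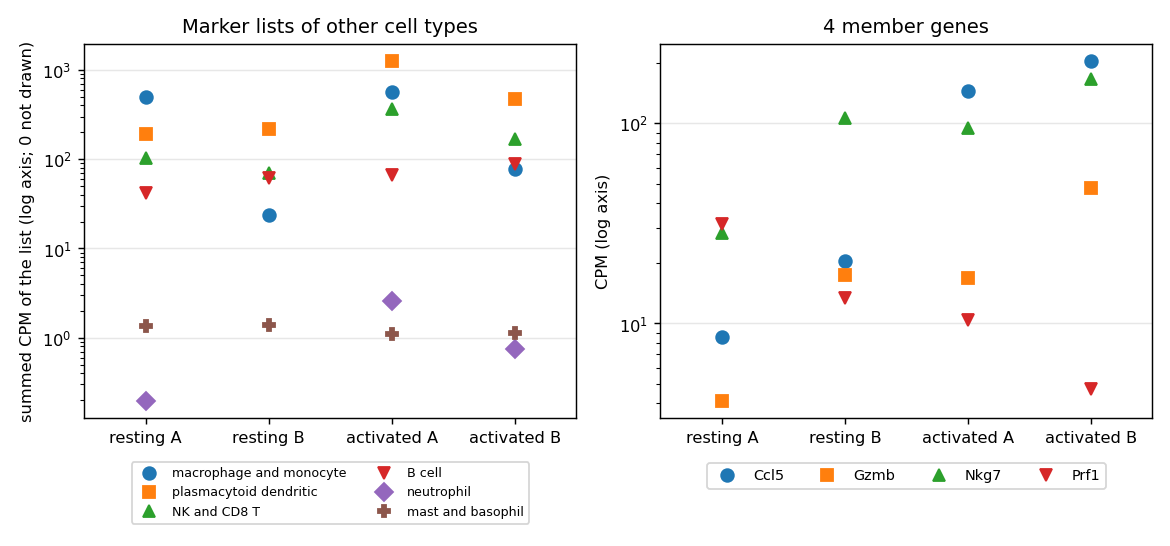
Summed CPM of 6 marker lists (left) and CPM of 4 members (right) in each library, both on log axes, with 1 point per library (the neutrophil sum of 0 in resting B is not drawn). Macrophage markers are high in resting A and activated A and plasmacytoid dendritic cell markers are highest in activated A, while Ccl5, Gzmb and Nkg7 are highest in activated B and Prf1 in resting A.

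Genes with the most similar pattern over the 4 libraries were sought among 9448 other tested genes, by the distance between log2 CPM values centred on each gene's mean. Closest to Gzmb were Cass4 (distance 0.273), the transcription factor gene Bhlhe40 (0.285) and the smooth muscle actin gene Actg2 (0.297). Bhlhe40 was at 28.0, 87.0, 105 and 265 CPM in that library order. Closest to Ccl5 were the carboxylesterase gene Ces2c (distance 0.541) and the chemokine receptor gene Cxcr6 (0.594). Cxcr6 was at 10.3, 19.7, 112 and 142 CPM in the same order of libraries. With 4 libraries such likeness is a description only.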

How the data were processed

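Treg from mouse spleen were profiled in 4 libraries, 2 resting and 2 activated, made with a template-switching kit for low inputs. STAR 2.4.0c, mm10, featureCounts and DESeq2 are named in the submitters' processing notes. The sources used here do not state annotation release, strand setting or the counting of shared reads. One deposited table has raw counts per gene, and the other deposited table holds the authors' regularized log2 values. Both columns of a group in the count table carry 1 heading, so columns were assigned to groups and given letters. Identifiers were matched to symbols with GENCODE M21 (37607 of 38924). Genes were filtered with filterByExpr (minimum count 10, total 15) and tested with edgeR 4.0.16 in R 4.3.3, on TMM-scaled counts with group alone (prior count 2). P-values were adjusted by Benjamini-Hochberg over all 14235 genes, at a threshold of 0.05. An approximate SE was taken by dividing the size of the log2 fold change by the root of F.

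DESeq2 1.42.0 and limma 3.58.1 served as alternatives, with low-count filtering, library omission and a replicate block. The procedure was tested on simulated data. An exact permutation test of 2 against 2 cannot go below p = 0.333 and was not run. Libraries of a group differed far beyond counting error (chi-square per degree of freedom 56.3 and 93.1), so none was a copy. Reads are PCR products without molecular identifiers, so intervals cover counting error only. Named genes were all members, then up to 4 genes of each related list by smallest p, genes with no count and 3 genes of like pattern for Gzmb and for Ccl5; further list genes were named after their values were seen, and some genes of these lists are not reported here. Members and lists were chosen with earlier results of these data known.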

Additional observations from a re-analysis of the deposited data

How the results depend on the processing

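The number of members past the threshold was 0 by edgeR on group alone, and 0 with DESeq2 size factors, limma-voom or limma on the regularized log2 values. It was 2 with DESeq2, 5 without a filter on low counts and 5 with macrophage marker level as a term. Over all genes the main count of 0 became 442 with DESeq2, 852 without the filter and 1126 with that term. Leaving out 1 library at a time gave 0 to 3 members (Ccl4 and Ccl5 without resting A, Gzmb, Nkg7 and Ccl5 without resting B) and 0 to 370 genes. The cause of these differences was not tested. The sign of the Gzmm value turned without activated B (-0.094) and without resting B (-0.070), within a range up to 0.29. The other 8 members kept their direction in all 12 alternatives each. The count of members above both resting libraries was 4, and 5 with library totals.

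The replicate numbers of the regularized log2 table give only 2 pairs, and the labels tie a number to no shared animal or day. Differences between replicates 1 and 2 correlated between the groups over genes (r = 0.652). With the replicate block, limma called 5 members (Gzmb, Nkg7, Ccl4 and Ccl5 higher, Prf1 lower) and 1552 genes, against 0 and 0 without it. By macrophage markers, replicates 1 and 2 split the libraries as A and B did. This block and the macrophage marker term are thus not separate tests. Low counts limit Ccl3, Gzmk, Gzma and Gzmm most, since 3 counts were between 0.0979 and 0.148 CPM.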

Other observations

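The authors' deposited regularized log2 values, which carry replicate numbers, gave the same order of groups. Ccl5 was at 7.96 and 9.10 in resting 1 and 2 and at 11.7 and 12.2 in activated 1 and 2. Prf1 was at 9.42 and 8.36 in resting and 8.04 and 7.08 in activated, and Gzmb at 6.94 and 8.75 in resting and 8.69 and 10.0 in activated. For scarce members this scale draws values towards the gene's mean: Gzmk was at 3.67 and 3.67 in resting and 4.76 and 4.07 in activated.

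Among genes with 1 to 20 counts, 54.6% to 59.7% of the counts in a library were even numbers, against 50.4% to 50.9% among well-covered genes. All values under 20 in Gzma, Gzmk, Ccl3 and Ccl4 were even. The sources used here do not state how mates of a read pair were counted. The exact intervals given for Ccl3 and Gzmk take each count as independent, which was not tested.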
